A study of Mus musculus with 167 samples.

Results

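The measurements described here are V(D)J joins of the immunoglobulin heavy-chain locus (Igh) in pro-B cells that carry 1 mutant and 1 wild-type allele of Wapl, set against cells with both alleles intact. The members are the 2 libraries labelled Wapl(deltaP1,2/+) and the 2 libraries labelled Wapl(+/+) from 1 flow cell, chosen by genotype label, which makes 4 of the 167 samples of the series and 4 of its 56 V(D)J libraries. A further 2 libraries of the same flow cell, labelled Wapl(deltaP1,2/deltaP1,2), carry the mutation on both alleles. They were used for comparison because they share the allele and the flow cell. Libraries of other flow cells were also set beside these. They were labelled Wapl(deltaP1/deltaP1), or were wild-type libraries labelled Wapl(+/+), Igh(+/+), Pax5(+/+) or WT. All 6 libraries of the first flow cell came from C57BL/6 mice and were made from DNA of pro-B cells sorted directly from bone marrow. Their labels carried no other allele or agent. The labels give neither age nor sex, and they do not say whether the libraries of a group came from separate mice, so p-values measure only the spread between these libraries, which may be technical. Joins are read from DNA. Wapl transcripts and markers of the sorted cells are therefore not measured in these libraries, and the genotype and cell type rest on the labels alone.

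In V(D)J recombination, the RAG recombinase cuts next to short recombination signals and joins a V gene to a D and a J segment, which builds the variable exon of the antibody heavy chain in pro-B cells. The V genes of mouse Igh lie in a long array on 1 side of the D and J segments, with the Ighv2 and Ighv5 families nearest, the large Ighv1 family farthest, and small families between them, and far genes are brought to the recombination centre by contraction of the locus and by loop extrusion. Cohesin is the ring-shaped complex that extrudes chromatin loops, Wapl takes cohesin off chromatin, and the B-cell transcription factor Pax5 represses Wapl in pro-B cells. The deltaP1,2 allele carries deletions labelled P1 and P2 at Wapl. The comparison asks how a single such allele alters the choice of V genes.

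The deposited files list 189 V genes per library with 1 value each, read here as a percent, and the values of a library add up to well under 100. The sum over all listed V genes, called the listed V total below, was 17.0 and 16.9 percent in heterozygous libraries, 10.4 and 9.88 percent in homozygous libraries, and 48.9 and 48.5 percent in wild-type libraries. The remainder of the total is not itemised in the files, so every gene is given as deposited and also relative to the listed V total, as a share. Heterozygous libraries had 125 and 121 V genes above 0, homozygous libraries 107 and 109, and wild-type libraries 136 and 137. The heterozygous total averaged 16.95 ± 0.129 percent against 48.7 ± 0.247 percent in wild-type cells (SD, n = 2 each), and the groups did not overlap. An exact permutation test, two-sided, gave p = 0.3333, the smallest value that 2 libraries against 2 allow. Wild-type libraries of 6 other flow cells, 20 in all, had totals between 35.4 and 52.7 percent, above both heterozygous libraries. Their labels were Igh(+/+), Wapl(+/+), Pax5(+/+) or WT, so not all were controls for a Wapl allele. The number of reads behind these values is unknown.

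The recombination signals of the V genes on which the account turns are shown first, because genes with the same signal can be compared at different distances from the D segments. A signal starts directly after the V exon with a heptamer (consensus CACAGTG), followed by a spacer of about 23 bases and a nonamer (consensus ACAAAAACC), and heptamer and nonamer are in capitals below. Signals were located for 93 of the 189 listed V genes by matching the end of the V transcript to the mouse genome, build NCBIM37 (mm9), and all those shown lie on the minus strand of chromosome 12. The first line is the signal of Ighv5-2 at chr12:114816676-114816714, the V gene with the highest share in every library of the 3 groups. The second is the signal that Ighv2-2 at chr12:114826439-114826477 and Ighv2-4 at chr12:114891463-114891501 have in common. The third is identical in Ighv5-4 at chr12:114835618-114835656, Ighv5-6 at chr12:114863678-114863716, Ighv5-12 at chr12:114940296-114940334 and Ighv5-9-1 at chr12:114974283-114974321. The fourth is identical in Ighv14-2 at chr12:115232642-115232679, Ighv14-3 at chr12:115298018-115298055 and Ighv1-63 at chr12:116733798-116733835, which belong to middle and distal families. The fifth is that of Ighv1-67 at chr12:116842111-116842150, the gene with the most negative change in share.
Ighv5-2: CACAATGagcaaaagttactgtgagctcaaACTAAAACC
Ighv2-2 and Ighv2-4: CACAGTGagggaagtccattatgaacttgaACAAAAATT
Ighv5-4, Ighv5-6, Ighv5-12 and Ighv5-9-1: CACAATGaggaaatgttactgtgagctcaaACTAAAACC
Ighv14-2, Ighv14-3 and Ighv1-63: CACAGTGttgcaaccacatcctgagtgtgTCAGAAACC
Ighv1-67: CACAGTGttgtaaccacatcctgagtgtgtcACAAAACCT

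In cells with 1 mutant allele most listed joins used the V genes next to the D segments, and the listed V total was smaller. The proximal families Ighv2 and Ighv5 made up 77.6% and 76.9% of the listed V total in heterozygous libraries, 88.0% and 87.3% in homozygous libraries, and 20.9% and 22.5% in wild-type libraries. The distal families Ighv1 and Ighv8 made up 11.8% and 10.8% in heterozygous libraries, 5.23% and 5.58% in homozygous libraries, and 49.8% and 48.2% in wild-type libraries. The 12 remaining families, called middle here, held 10.6% and 12.3% in heterozygous libraries, 6.76% and 7.17% in homozygous libraries, and 29.3% and 29.3% in wild-type libraries. No 2 genotypes overlapped in any of these sums, and heterozygous cells stood much closer to homozygous than to wild-type cells. In mean share, the distal families were 4.34-fold lower and the middle families 2.56-fold lower in heterozygous than in wild-type cells, while the proximal families were 3.56-fold higher. Each of these 3 sums had an exact permutation p of 0.3333, the smallest possible here.

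As deposited, the losses were larger and the proximal gain was small. The distal families summed to 2.01 and 1.82 percent in heterozygous libraries, 0.542 and 0.551 percent in homozygous libraries, and 24.3 and 23.4 percent in wild-type libraries. The middle families summed to 1.81 and 2.07 percent in heterozygous libraries, 0.701 and 0.708 percent in homozygous libraries, and 14.3 and 14.2 percent in wild-type libraries. Distal joins were thus 12.5-fold and middle joins 7.36-fold lower in heterozygous than in wild-type cells on this scale. The proximal families summed to 13.2 and 12.97 percent in heterozygous libraries, 9.13 and 8.62 percent in homozygous libraries, and 10.2 and 10.9 percent in wild-type libraries. Here the heterozygous libraries were the highest of the 6, by 1.24-fold over the wild-type mean and 1.48-fold over the homozygous mean. Both heterozygous values also lay above 12.79 percent, the highest proximal sum among the 20 wild-type libraries of other flow cells, whose median was 10.7 percent.

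**Figure D1:**
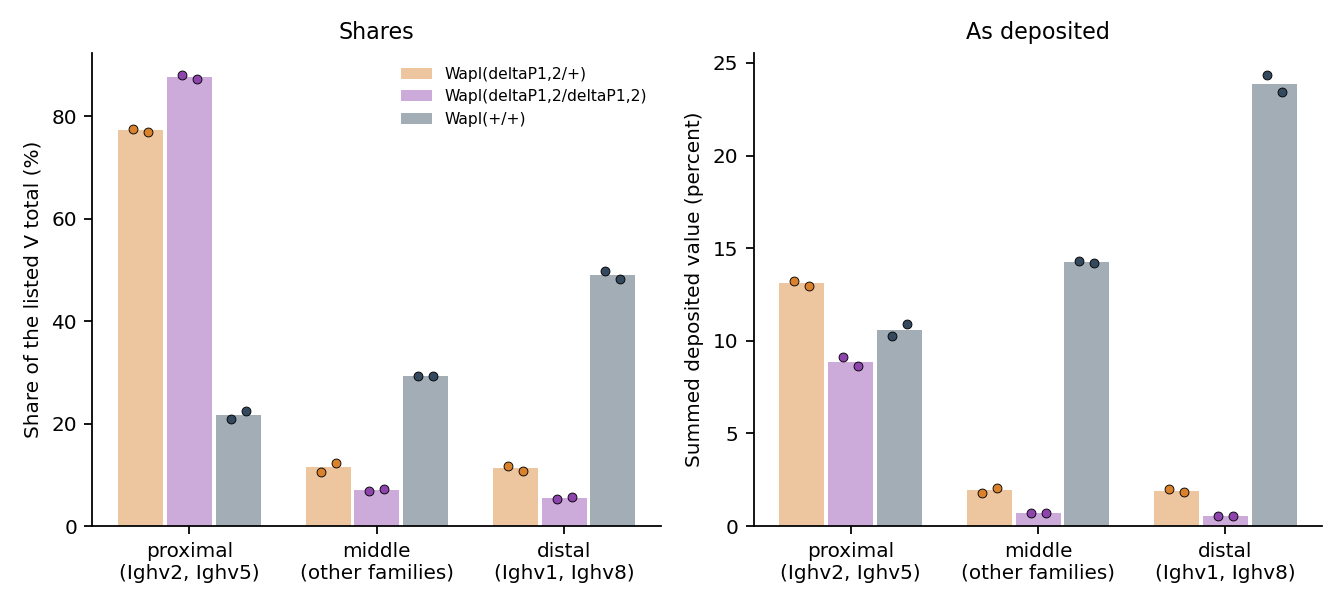
Summed V gene use by family group, with bars for the mean and points for the 2 libraries of each genotype. The left panel gives the percent of the listed V total and the right panel the deposited percent; heterozygous libraries resemble homozygous ones in shares, whereas as deposited their proximal sum is the highest of the 3 genotypes.

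The order heterozygous between homozygous and wild type held for all families measured by share. All 11 middle families with joins in every genotype, both distal families and both proximal families had heterozygous mean shares between the other means; Ighv16, the twelfth middle family, was above 0 in only 1 wild-type library. The middle families were lower in heterozygous than in wild-type cells by between 1.77-fold for Ighv11 and 3.36-fold for Ighv14. Ighv1, the largest family, took 10.2% and 9.35% of the listed V total in heterozygous libraries, 4.54% and 4.66% in homozygous libraries, and 44.1% and 42.6% in wild-type libraries. Ighv8 took 1.59% and 1.44% in heterozygous libraries, 0.683% and 0.919% in homozygous libraries, and 5.73% and 5.65% in wild-type libraries. Ighv5 rose to 49.1% and 48.1% in heterozygous libraries, against 13.1% and 13.98% in wild-type libraries. Ighv2 rose to 28.5% and 28.9% in heterozygous libraries, against 7.80% and 8.52% in wild-type libraries. As deposited, the middle and distal families kept the same order, and Ighv2 and Ighv5 were highest in heterozygous cells.

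Joins concentrated on very few V genes. In heterozygous libraries 3 V genes sufficed to reach 50% of the listed V total in each library, in homozygous libraries 2, and in wild-type libraries 28 and 27. The effective number of V genes, the inverse of the sum of squared shares, was 7.84 and 8.06 in heterozygous libraries, 5.39 and 5.75 in homozygous libraries, and 66.6 and 63.1 in wild-type libraries. In the 20 wild-type libraries of other flow cells this number ranged from 54.0 to 67.1. The groups did not overlap, and the heterozygous mean was 8.16-fold below the wild-type mean.

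Single V genes were tested with limma on log2(share + 0.02) for the 119 of 189 genes that reached a share of 0.05% in at least 2 of the 6 libraries. Of the rest, 48 were at 0 in all 6 libraries and 22 were above 0 with no share over 0.0552%. At an adjusted p under 0.05, 105 genes were called (88.2% of those tested), of which 10 were higher (8.4%) and 95 lower (79.8%) in heterozygous than in wild-type cells. All 10 higher genes were among the 17 proximal genes tested, where 2 others were lower. Lower shares were called for 30 of 33 middle genes and 63 of 69 distal genes, with none higher in either group. The median log2 difference was 1.24 for proximal, -1.36 for middle and -2.07 for distal genes, beside -1.57 for all genes tested.

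The direction of single genes depends on what the values are scaled to. On the deposited scale 117 genes were called (98.3%), 6 higher (5.04%) and 111 lower (93.3%), and lower calls covered all 33 middle genes, all 69 distal genes and 9 of 17 proximal genes. The median log2 difference of all genes tested was then -2.45, and that of proximal genes -0.26. With Ighv5-2 and Ighv2-2 left out of the total, 13 genes were higher and 58 lower, and the 13 higher genes were all proximal. With each library centred on its median gene, 28 genes were higher and 5 lower: all 17 proximal genes were higher, 8 middle genes were higher and 0 lower, and 3 distal genes were higher and 5 lower. Under all 4 scalings more proximal than distal genes were called higher, and as deposited the higher calls were those of the 6 tested genes nearest the D segments.

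**Figure D2:**
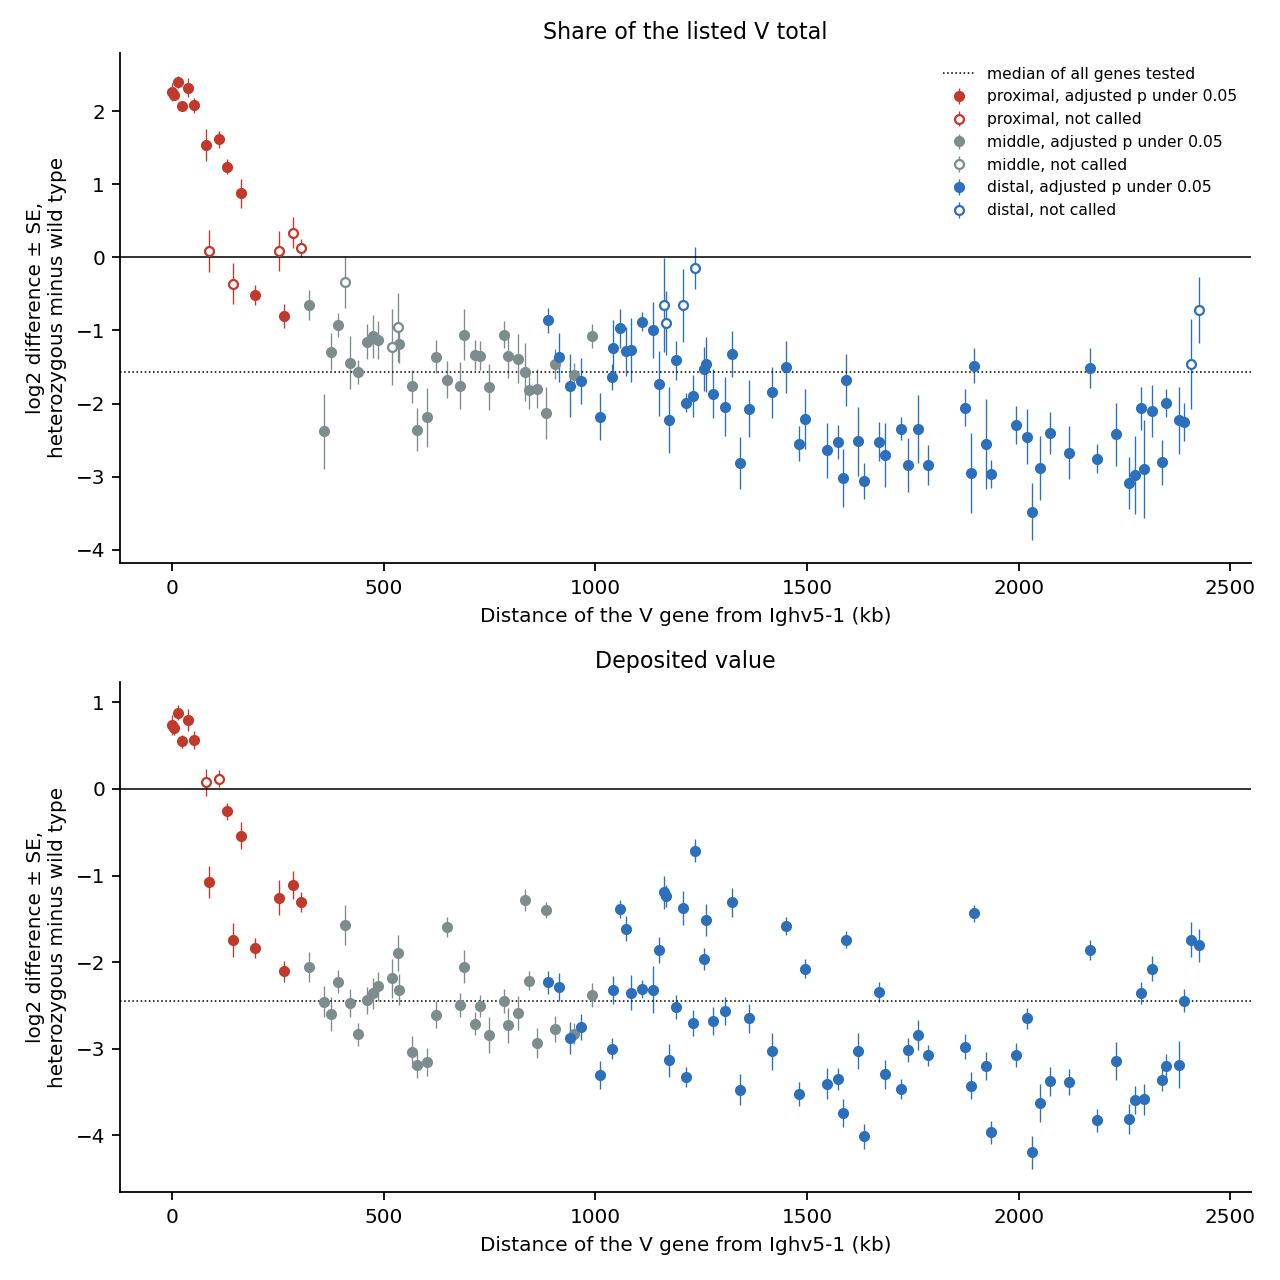
Log2 difference between heterozygous and wild-type cells for each of the 119 V genes tested (points with SE from limma) against its distance from Ighv5-1, as share of the listed V total (top) and as deposited (bottom). Filled points passed an adjusted p of 0.05 and the dotted line is the median of all genes tested; values are positive only near the left edge, where 10 genes were called higher by share and 6 as deposited, and with each library centred on its median gene 28 genes were instead higher and 5 lower.

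The 6 tested genes nearest the D segments had the most positive differences, all of similar size. Ighv5-2, also called VH81X and known for its frequent use in fetal and early repertoires, lies on chromosome 12 from 113578504 to 113578990 (GRCm38), 5.58 kb from Ighv5-1, the listed V gene closest to the D segments. Its share was 28.4% and 27.7% in heterozygous libraries, 34.5% and 34.0% in homozygous libraries, and 5.62% and 6.39% in wild-type libraries. The heterozygous shares lay far above both wild-type shares and below both homozygous shares. The mean was 28.0% ± 0.507 in heterozygous against 6.01% ± 0.546 in wild-type cells (SD, n = 2 each), a log2 difference of 2.22 ± 0.074 (SE, limma, adjusted p = 3.73e-06). Wild-type libraries of other flow cells held between 5.34% and 8.17% in Ighv5-2. As deposited, Ighv5-2 had 4.84 and 4.66 percent in heterozygous libraries, 3.58 and 3.36 percent in homozygous libraries, and 2.75 and 3.10 percent in wild-type libraries. On that scale the heterozygous libraries were the highest, with a log2 difference from wild type of 0.70 (limma, adjusted p = 2.5e-05).

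Ighv2-2, the next functional gene at 15.3 kb (chromosome 12, 113588267 to 113588700, GRCm38), had the most positive log2 difference of all genes tested. Its share was 17.9% and 17.97% in heterozygous libraries, 22.0% and 19.8% in homozygous libraries, and 3.22% and 3.53% in wild-type libraries. This was 5.31-fold the wild-type mean, with a log2 difference of 2.40 ± 0.081 (SE, limma, adjusted p = 3.73e-06). As deposited, Ighv2-2 had 3.05 and 3.03 percent in heterozygous libraries, 2.29 and 1.96 percent in homozygous libraries, and 1.57 and 1.715 percent in wild-type libraries. The ratio of Ighv5-2 to Ighv2-2 was 1.59 and 1.54 in heterozygous libraries, 1.56 and 1.72 in homozygous libraries, and 1.75 and 1.81 in wild-type libraries. Both genes thus rose together, and the ratio was lower in both heterozygous libraries than in either wild-type library.

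The other 4 genes within 52.6 kb behaved alike. Ighv5-1, annotated as a pseudogene in RefSeq, had a share of 1.95% and 1.69% in heterozygous libraries, 2.31% and 2.54% in homozygous libraries, and 0.363% and 0.363% in wild-type libraries. Ighv5-4 had 8.27% and 8.27% in heterozygous libraries, 9.51% and 10.1% in homozygous libraries, and 1.92% and 1.997% in wild-type libraries. Ighv2-3 had 5.66% and 5.87% in heterozygous libraries, 6.51% and 6.09% in homozygous libraries, and 1.01% and 1.29% in wild-type libraries. In all of them the heterozygous and wild-type shares were far apart, and the homozygous shares were higher still. Ighv5-6, at 52.6 kb, had 4.43% and 4.49% in heterozygous libraries, 4.98% and 4.81% in homozygous libraries, and 0.952% and 1.13% in wild-type libraries. The log2 differences of these 4 genes ran from 2.07 for Ighv5-4 to 2.32 for Ighv2-3 (limma, adjusted p between 3.73e-06 and 3.48e-05). As deposited the 6 genes from Ighv5-1 to Ighv5-6 were those called higher, with log2 differences from 0.55 for Ighv5-4 to 0.88 for Ighv2-2. Together the genes of this stretch took 66.6% and 65.9% of the listed V total in heterozygous libraries, 79.9% and 77.3% in homozygous libraries, and 13.1% and 14.7% in wild-type libraries. Ighv2-1, Ighv5-3, Ighv6-1 and Ighv5-5, annotated pseudogenes in the same stretch, were listed at 0 in all 6 libraries.

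**Figure D3:**
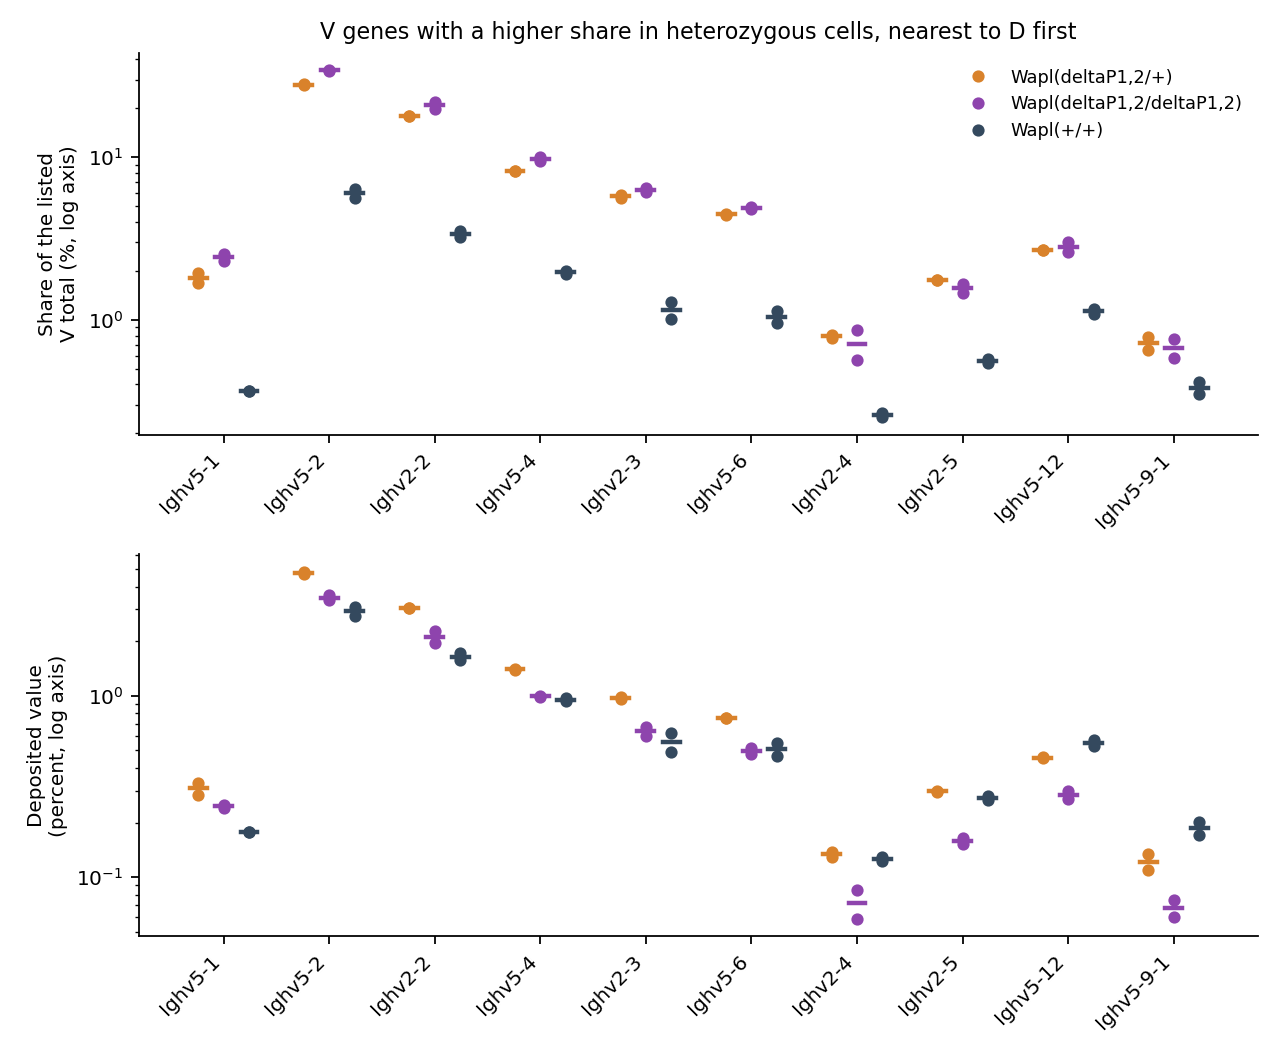
Values of the 10 V genes with a higher share in heterozygous cells, ordered by distance from the D segments, with a point per library and a bar for each mean on logarithmic axes. The top panel shows shares of the listed V total, where both mutant genotypes lie above wild type in every gene. The bottom panel shows deposited percent, where heterozygous libraries are highest in the first 8 genes. Of these the first 6 were called higher than wild type. In Ighv5-12 and Ighv5-9-1 heterozygous libraries are below wild type as deposited.

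The gain faded over the next genes outward. Ighv2-4, at 80.4 kb, had a share of 0.810% and 0.770% in heterozygous libraries, 0.566% and 0.862% in homozygous libraries, and 0.251% and 0.267% in wild-type libraries, a log2 difference of 1.54 (limma, adjusted p = 0.00133). Ighv2-5, at 112.6 kb, had 1.75% and 1.76% in heterozygous libraries, 1.46% and 1.66% in homozygous libraries, and 0.573% and 0.545% in wild-type libraries, a log2 difference of 1.61 (limma, adjusted p = 8.5e-05). Both rose in share, and neither was called as deposited (log2 differences of 0.07 for Ighv2-4 and 0.12 for Ighv2-5). Ighv5-12, at 129.2 kb, had 2.69% and 2.69% in heterozygous libraries, 2.61% and 3.00% in homozygous libraries, and 1.17% and 1.09% in wild-type libraries. Ighv5-9-1, at 163.2 kb, had 0.785% and 0.651% in heterozygous libraries, 0.581% and 0.759% in homozygous libraries, and 0.350% and 0.414% in wild-type libraries. These last 2 genes rose in share, by log2 differences of 1.24 and 0.88, and were lower as deposited, by log2 differences of -0.26 (adjusted p = 0.029) and -0.54 (adjusted p = 0.00886). The deposited call for Ighv5-12 was lost without heterozygous replicate 1 (adjusted p = 0.0896), heterozygous replicate 2 (0.112) or wild-type replicate 1 (0.142). That for Ighv5-9-1 was lost without heterozygous replicate 2 (adjusted p = 0.0568) or wild-type replicate 2 (0.0761).

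The other 7 proximal genes tested, named after their values were seen to complete the families, lie between 88.8 and 306.2 kb, and none was called higher by share. With Ighv5-2 and Ighv2-2 out of the total 13 of the 17 proximal genes were called higher, and with median centring all 17, so these genes also depend on the scale. Ighv5-9 at 88.8 kb (log2 difference 0.09, adjusted p = 0.776) and Ighv2-6 at 143.7 kb (-0.36, adjusted p = 0.263) were not called although genes on both sides of them were higher. Ighv2-9-1 at 196.9 kb had 0.509% and 0.517% in heterozygous libraries, 0.461% and 0.449% in homozygous libraries, and 0.715% and 0.768% in wild-type libraries, and was the nearest gene called lower (log2 difference -0.51, adjusted p = 0.0114). Ighv5-16 at 265.6 kb was also lower, with a log2 difference of -0.80 (adjusted p = 0.00443). Ighv5-15, Ighv5-17 and Ighv2-9, at 253.7 to 306.2 kb, had log2 differences of 0.09, 0.34 and 0.13 and were not called. Within the 2 proximal families the log2 share difference ran from 2.40 to -0.80 over 306.2 kb. Over the 17 proximal genes, Spearman's rho of the log2 share difference with distance was -0.81, given as a description, since all genes come from the same libraries and share 1 total.

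Identical signals went with like changes in some sets of genes and with unlike changes in others, and no difference within a set was tested. Among the tested genes there were 15 sets with the same signal, and the range of the log2 share difference within a set ran from 0.11 to 1.63 with a median of 0.67. It was under 0.5 in 7 sets, such as Ighv1-52 and Ighv1-74 (-2.53 and -2.42, at 1573 and 2230 kb) and Ighv10-1 and Ighv10-3 (-1.46 and -1.61, at 906.1 and 950.5 kb). The 3 sets shown above all have ranges wider than this median and were picked after their values were seen. Ighv5-4, Ighv5-6, Ighv5-12 and Ighv5-9-1, which have the third signal shown above, had log2 share differences of 2.07, 2.08, 1.24 and 0.88 in the order of their distance, 24.5, 52.6, 129.2 and 163.2 kb. Ighv2-2 and Ighv2-4, which share the second signal, had 2.40 at 15.3 kb and 1.54 at 80.4 kb. The signal common to Ighv14-2, Ighv14-3 and Ighv1-63 went with log2 differences of -1.44, -1.13 and -2.55 at 421.5, 486.9 and 1923 kb. Members of such a set have the same heptamer, spacer and nonamer letter for letter. Of 87 tested genes with a located signal, 70 had a heptamer identical to the consensus, and 3 of these were higher and 59 lower, beside 8.4% higher and 79.8% lower among all genes tested. Another 15 genes had 6 of 7 heptamer bases in common with it, of which 6 were higher and 8 lower. Over all located signals, tested or not, the heptamer was the full consensus in 12 of 18 proximal and 44 of 49 distal genes, so heptamer and position cannot be told apart in these counts. Genes with the same signal can be close in sequence elsewhere, and reads shared between such genes could be assigned to the wrong member.

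By position, the fall in share was smallest in the second bin and largest between 1500 and 2250 kb, without a steady order between them. In bins of 250 kb from Ighv5-1, the first bin took 74.1% and 73.4% of the listed V total in heterozygous libraries, 86.3% and 85.1% in homozygous libraries, and 17.3% and 19.0% in wild-type libraries. The second bin took 7.37% and 8.14% in heterozygous libraries, 4.95% and 5.04% in homozygous libraries, and 12.3% and 12.9% in wild-type libraries. From the second bin on, every heterozygous library lay below both wild-type libraries. The heterozygous sum was 1.62-fold lower than the wild-type sum in the second bin, and between 2.60- and 2.99-fold lower in the next 3 bins, which reach to 1250 kb. It was 4.94-fold lower from 1250 to 1500 kb, and 7.25-, 6.925- and 7.35-fold lower in the 3 bins from 1500 to 2250 kb. In the outermost bin, 2250 to 2500 kb, the difference was smaller again, at 5.37-fold. As deposited, the first bin was 1.41-fold higher in heterozygous cells, and the folds by which the others were lower ran from 4.66 in the second bin to 21.1 between 2000 and 2250 kb, with 15.4 in the outermost bin.

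**Figure D4:**
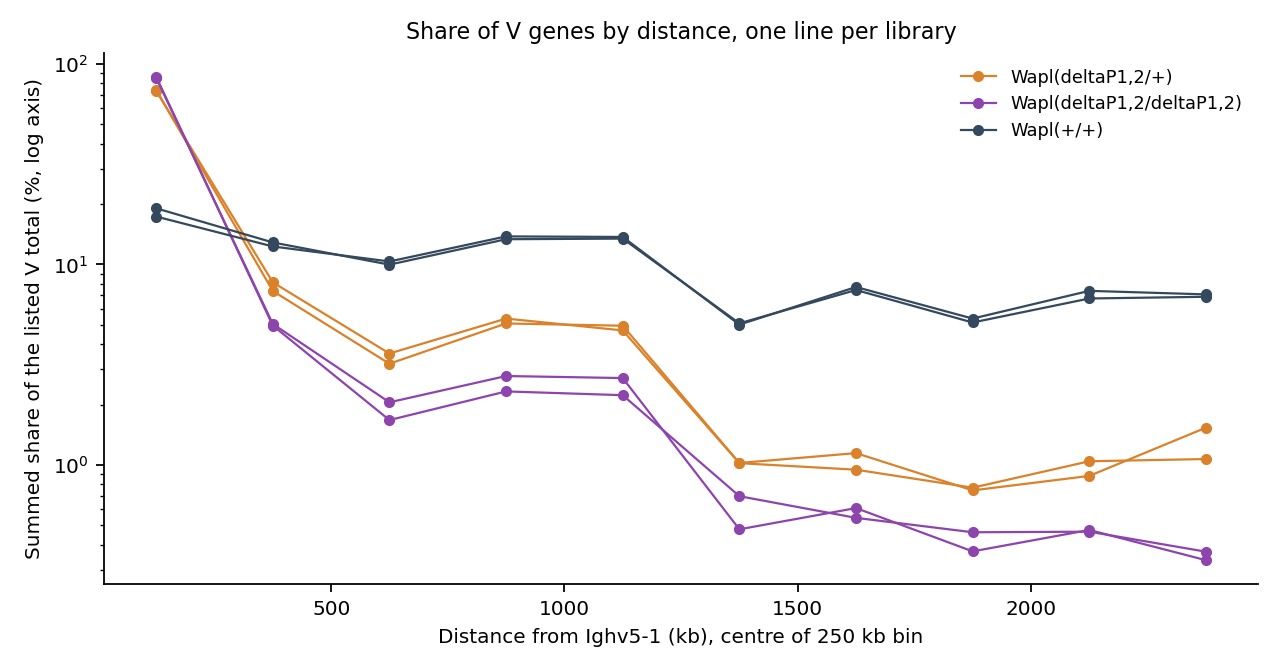
Summed share of the listed V total in bins of 250 kb by distance from Ighv5-1, with a line per library on a logarithmic axis. Heterozygous libraries lie between homozygous and wild type in every bin, above wild type in the first bin only, and farthest below it from 1500 to 2250 kb.

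The 3 middle genes most used in wild type had changes at or somewhat smaller than the median of the group (-1.36), whose log2 share differences lay between -2.38 and -0.34. Ighv12-3, at 793.6 kb, had 0.748% and 0.953% in heterozygous libraries, 0.351% and 0.663% in homozygous libraries, and 2.32% and 2.06% in wild-type libraries (log2 difference -1.35, adjusted p = 0.00558, and 0.0517 without heterozygous replicate 1). Ighv3-6, at 715.2 kb, had 0.771% and 0.819% in heterozygous libraries, 0.268% and 0.406% in homozygous libraries, and 2.10% and 1.97% in wild-type libraries (log2 difference -1.33, adjusted p = 0.00148). Ighv13-2, at 784.8 kb, had 0.785% and 0.967% in heterozygous libraries, 0.332% and 0.449% in homozygous libraries, and 1.87% and 1.81% in wild-type libraries (log2 difference -1.06, adjusted p = 0.00253). All 3 fell, to between 0.389 and 0.476 of their wild-type mean share, with no overlap, yet stayed above the homozygous mean. With each library centred on its median gene the 3 were instead above wild type, by 0.54, 0.56 and 0.83 on the log2 scale. Over the 33 middle genes, rho with distance was -0.34.

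Among the distal genes most used in wild type, the size of the fall differed. Ighv1-26, at 1215 kb, had 0.611% and 0.678% in heterozygous libraries, 0.286% and 0.256% in homozygous libraries, and 2.60% and 2.63% in wild-type libraries (log2 difference -1.99 ± 0.13, SE, adjusted p = 7.02e-05). Ighv1-11, at 1039 kb, had 0.724% and 0.725% in heterozygous libraries, 0.258% and 0.363% in homozygous libraries, and 2.38% and 2.23% in wild-type libraries (log2 difference -1.64, adjusted p = 0.00051). Ighv1-18, at 1110 kb, had 1.26% and 1.21% in heterozygous libraries, 0.609% and 0.748% in homozygous libraries, and 2.23% and 2.36% in wild-type libraries (log2 difference -0.88, adjusted p = 0.00145). Ighv1-26 was 4.06-fold lower in heterozygous than in wild-type cells, whereas Ighv1-18 was 1.86-fold lower and was the distal gene with the highest heterozygous share. When libraries were centred on their median gene, Ighv1-18 and Ighv1-11 were above wild type (1.01 and 0.25) and Ighv1-26 was not (-0.10).

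The 10 most negative log2 differences all belonged to Ighv1 genes between 1586 and 2296 kb from Ighv5-1. Ighv1-67, at 2031 kb, had 0.0736% and 0.161% in heterozygous libraries, 0.0369% and 0.0214% in homozygous libraries, and 1.51% and 1.36% in wild-type libraries. Its mean share was 12.2-fold lower in heterozygous than in wild-type cells, and its log2 difference of -3.48 ± 0.39 (SE, adjusted p = 0.000543) was the most negative of all genes tested. Ighv1-64, at 1935 kb, had 0.196% and 0.201% in heterozygous libraries, 0.0646% and 0.0641% in homozygous libraries, and 1.78% and 1.59% in wild-type libraries (log2 difference -2.96, adjusted p = 7.02e-05). Ighv1-55, at 1635 kb, had 0.192% and 0.157% in heterozygous libraries, 0.0861% and 0.135% in homozygous libraries, and 1.65% and 1.55% in wild-type libraries (log2 difference -3.06, adjusted p = 0.000183). These are genes of frequent use in wild type, each at well over 1% there. The other 7, among them Ighv1-53, Ighv1-58, Ighv1-62-3, Ighv1-69, Ighv1-75 and Ighv1-78, had log2 differences from -3.08 to -2.84, of which Ighv1-78 lost its call without heterozygous replicate 2 (adjusted p = 0.0569).

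At the far end of the array the size of the fall differed between genes. The 11 tested genes from 2250 to 2500 kb had log2 share differences from -3.08 to -0.72. Their median was -2.23, beside -2.07 for all distal genes tested. Ighv1-85, the outermost gene tested, at 2427 kb, had 0.258% and 0.175% in heterozygous libraries, 0.0738% and 0.0214% in homozygous libraries, and 0.391% and 0.336% in wild-type libraries. The heterozygous shares were below both wild-type shares, but the log2 difference of -0.72 ± 0.45 (SE) was not called (adjusted p = 0.176). Ighv1-83, which has a signal identical to that of Ighv1-85 and was picked for this after its value was seen, lies at 2391 kb and had a log2 difference of -2.25 (adjusted p = 0.000604). Over the 69 distal genes, rho of the log2 share difference with distance was -0.56, and over all 119 genes -0.75. The 14 genes not called lay between 88.8 and 2427 kb: 5 proximal, 3 middle and 6 distal.

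Annotated pseudogenes, which can rearrange but give no antibody chain, took 4.38% and 4.66% of the listed V total in heterozygous libraries, 4.05% and 4.77% in homozygous libraries, and 7.10% and 7.23% in wild-type libraries. They numbered 63 of the 189 listed genes, and 14 were tested. Much of the heterozygous sum came from Ighv5-1, whose share is given above.

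CTCF, a DNA-binding protein that halts cohesin, was mapped in cultured wild-type pro-B cells of the same series, and peaks were looked for within 1000 bases of each located signal in both of 2 libraries. Such peaks were found at 13 of 18 proximal genes with a located signal (72.2%), 8 of 26 middle genes (30.8%) and 1 of 49 distal genes (Ighv1-12). The distal count depends on the window. In both libraries the nearest peak lay just outside it, at 1058 to 1167 bases, for Ighv1-64, Ighv1-67, Ighv1-69, Ighv1-72 and Ighv1-74. These distal genes are counted below as without a peak, and all were called lower. Of the 87 tested genes with a located signal, 22 had a peak, and 7 of these were higher and 10 lower in heterozygous cells, while of 65 without a peak 2 were higher and 59 lower (8.4% higher and 79.8% lower among all genes tested). Among proximal genes, the median log2 share difference was 0.88 for 13 with a peak and 1.54 for 3 without. Among middle genes it was -1.32 for 8 with a peak and -1.40 for 16 without. Whether a peak bears on the change was not tested. Of the genes called higher, Ighv5-2, Ighv2-2, Ighv5-4 and Ighv2-3 were among those with a peak, Ighv5-6 had one in 1 of the libraries, and Ighv2-4 had none. Heterozygous cells have no CTCF map here.

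Set against homozygous cells, heterozygous cells had higher shares of many far genes and lower shares of 3 of the nearest. Genes were called lower by share only, and not as deposited. By share, 45 genes were called (37.8% of 119), 42 higher (35.3%) and 3 lower (2.52%) in heterozygous than in homozygous cells. The 3 lower genes were Ighv5-1, Ighv5-2 and Ighv5-4, all within 24.5 kb, with log2 differences of -0.41 (adjusted p = 0.0403), -0.29 (0.0292) and -0.24 (0.0384). These 3 calls were lost without heterozygous replicate 1, heterozygous replicate 2 or homozygous replicate 2, when 0 genes were lower. The 42 higher genes all lay at 253.7 kb or beyond and comprised 4 of 17 proximal, 13 of 33 middle and 25 of 69 distal genes, and they numbered 25 without heterozygous replicate 1 and 27 without heterozygous replicate 2. The median log2 difference was 0.10 for proximal, 0.65 for middle and 0.88 for distal genes, beside 0.72 for all. With libraries centred on their median gene, 1 gene was higher and 17 lower. The direction of this shift follows from the construction, since the median gene itself was higher by share and most tested genes were middle or distal. Centring therefore cannot show whether the far genes as a group were higher.

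Ighv1-5, Ighv3-5, Ighv1-85, Ighv1-12 and Ighv1-25 had the largest differences called between the mutant genotypes. Ighv1-5, at 940.4 kb, had 0.319% and 0.215% in heterozygous libraries, 0.0738% and 0.0214% in homozygous libraries, and 0.931% and 0.934% in wild-type libraries. Its log2 difference from homozygous cells was 2.18 (limma, adjusted p = 0.0128). Ighv3-5, at 689.7 kb, had 0.135% and 0.215% in heterozygous libraries, 0.0369% and 0.0214% in homozygous libraries, and 0.428% and 0.331% in wild-type libraries, a log2 difference from homozygous cells of 1.97 (adjusted p = 0.0098). In each of these 5 genes both heterozygous shares lay above both homozygous shares. The lowest homozygous share given here, 0.0214%, is about the size of the pseudocount of 0.02. Ighv1-19-1, a gene below the filter, had the same share in homozygous replicate 2. These log2 differences therefore rest on homozygous values near the floor, with an unknown number of joins behind them. Against wild type, the calls of Ighv1-5, Ighv3-5 and Ighv1-12 did not survive leaving out single libraries: adjusted p was 0.0654 for Ighv1-5 without heterozygous replicate 2, 0.135 for Ighv3-5 without heterozygous replicate 1 and between 0.0648 and 0.111 for Ighv1-12 without any 1 of the 4 libraries. Ighv3-5 also lost it without wild-type replicate 1 (0.172) or wild-type replicate 2 (0.077). Ighv1-25 and Ighv1-85 were not called against wild type.

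As deposited, 96 genes were higher in heterozygous than in homozygous cells (80.7%) and 0 lower (0%), the limma count at an unadjusted p under 0.05 also being 96. This included 16 of 17 proximal, 29 of 33 middle and 51 of 69 distal genes. Ighv5-2, lower by share, was higher as deposited by a log2 difference of 0.45 (adjusted p = 0.00141), and Ighv2-2 by 0.52 (adjusted p = 0.00153). Both heterozygous libraries exceeded all 4 other libraries in 8 genes as deposited, namely the 6 from Ighv5-1 to Ighv5-6 with Ighv2-4 and Ighv2-5. By share they exceeded all 4 others in 3 genes, Ighv2-5, Ighv2-9 and Ighv5-17, and lay below all 4 in 1 gene. Of the 119 genes, 109 had a heterozygous mean between the homozygous and wild-type means as deposited, and 108 by share.

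**Figure D5:**
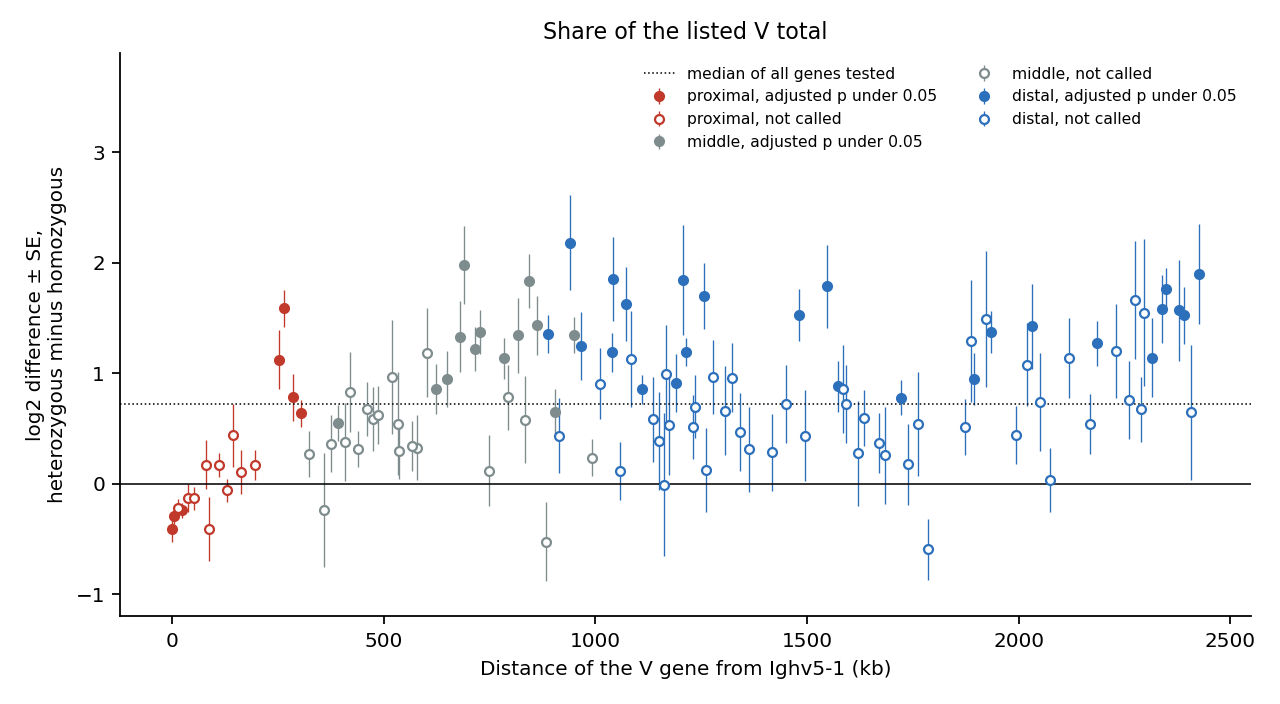
Log2 difference in share between heterozygous and homozygous cells for the 119 V genes tested (points with SE from limma) against distance from Ighv5-1. Filled points passed an adjusted p of 0.05 and the dotted line is the median; the 3 genes called lower lie within 24.5 kb and the 42 called higher at 253.7 kb or beyond, and with libraries centred on their median gene the counts were 1 higher and 17 lower.

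The heterozygous state of deltaP1,2 can be set beside the homozygous state of the single deletion labelled deltaP1, measured on another flow cell with its own controls (3 libraries each). Distal families took 11.8% and 10.8% of the listed V total in deltaP1,2 heterozygous libraries, and 12.7% to 14.5% in deltaP1 homozygous libraries, against 44.1% to 48.6% in the controls of the deltaP1 run. Ighv5-2 took 28.4% and 27.7% in deltaP1,2 heterozygous libraries, and 26.1% to 28.2% in deltaP1 homozygous libraries, against 5.555% to 7.35% in their controls. The difference between the 2 effects, each against its own wild type, was tested for 121 genes in a fit of 10 libraries. At an adjusted p under 0.05 no gene was called (0%), with 21 at an unadjusted p under 0.05 in limma. For Ighv5-2 the difference of effects was 0.19 ± 0.18 (log2, SE, adjusted p = 0.630) and for Ighv2-2 0.16 ± 0.18 (adjusted p = 0.671). The most extreme among the named genes was Ighv1-25 at 1.50 ± 0.51 (adjusted p = 0.15). The count is not firm: without deltaP1 replicate 2 it became 5 lower, without heterozygous replicate 2 it became 4 lower, and without heterozygous replicate 1 it became 1 higher and 1 lower. A p that misses the threshold does not show that the genotypes act alike, and the 2 mutant genotypes came from different runs, each with its own controls.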

How the data were processed

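Igh V(D)J joins were captured by extending JH primers on sonicated DNA ligated to adapters with molecular identifiers, per the labels' protocols. The authors deposited 1 table per library with a normalised value per V gene, recorded here as percent from its range. No source used here says what total it refers to, so read depth is unknown and counting intervals were not computed. Build mm10 and R 3.3.3 come from the submitters' processing notes. Aligner, V gene caller and use of the identifiers remain not given in the sources used here. CTCF peaks (unit: other) are intervals that the authors deposited, on mm9 per the series text.

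Shares of the listed V total were computed per library. Groups came from the genotype labels. Log2(value + 0.02) was modelled in limma 3.58.1 (R 4.3.3) with a trended prior over the 6 libraries of the flow cell, keeping genes whose share reached 0.05% in at least 2, with Benjamini-Hochberg adjustment over all genes tested and a threshold of 0.05, two-sided. The pseudocount makes log2 differences of rare genes smaller than the ratio of their means, most of all as deposited. The procedure was tested on simulated data. Sums were compared by exact permutation tests. Positions are those of RefSeq GRCm38.p6 for 183 of 189 genes. Signals were located by matching the last 250 bases of V transcripts of the GENCODE vM1 annotation to NCBIM37. Near the exon end, the placement starting with CAC that best matched the consensus heptamer and nonamer was kept. Placements with few matches were dropped. Counts of consensus matches, and the spacer lengths, are therefore partly set by this choice. Alternatives covered pseudocount, filter, prior, scaling, libraries in the fit and libraries left out. Named genes were the 10 most positive and 10 most negative called share differences with groups that do not overlap, the 10 nearest the D segments, the 3 most used in wild type per family group, and the 5 largest called differences between heterozygous and homozygous cells. Members, lists and tests were chosen with earlier results of these data known.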

Additional observations from a re-analysis of the deposited data

How the results depend on the processing

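The share counts against wild type were 10 higher and 95 lower. They stayed within 1.5 times of these under both pseudocounts, both filters, the untrended prior, the fit of 4 libraries, 6 further wild-type libraries and each library left out (10 higher in all, 80 to 89 lower). With Ighv5-2 and Ighv2-2 out of the total 58 genes were lower. With libraries centred on their median gene 28 were higher and 5 lower, and 10 named genes changed sign: Ighv12-3 (0.54), Ighv3-6 (0.56), Ighv13-2 (0.83), Ighv1-11 (0.25), Ighv1-18 (1.01), Ighv1-5 (0.14), Ighv3-5 (0.84), Ighv1-85 (1.17), Ighv1-12 (0.66) and Ighv1-25 (1.24), on the log2 scale. The direction of this shift follows from the construction, since the median gene itself was lower by share. After centring, the median log2 difference of all genes tested was 0.32 and not 0, so the size of the shift is not explained by this alone. Deposited counts stayed within 1.5 times under all alternatives run. Against homozygous cells by share, 42 higher and 3 lower became 23 higher with 4 libraries in the fit, 0 lower without a trended prior, 6 lower without Ighv5-2 and Ighv2-2 in the total, 1 higher and 17 lower with median centring, and 25 to 56 higher and 0 to 3 lower with single libraries left out; apart from the centring the cause was not tested. The difference from the deltaP1 effect went from 0 calls to 1 higher and 4 lower at a pseudocount of 0.1, 5 lower as deposited, and 0 to 1 higher and 0 to 5 lower with single libraries left out. No sum by family group or distance bin changed sign with a library left out. No paired analysis was possible because the labels give no replicate numbers shared by the groups. With read depth unknown, values near the lowest deposited value above 0 rest on an unknown number of joins. That lowest value was 0.00113 to 0.00209 percent in heterozygous libraries and 0.000638 to 0.000704 percent in homozygous libraries.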
